A study of Mus musculus with 12 samples.

Results

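The genes described here encode the nuclear part of the mitochondrial respiratory chain and of the ATP synthase. They were chosen by name alone: every gene whose symbol starts with Nduf, Uqcr, Cox4 to Cox8 or Atp5, together with Sdha, Sdhb, Sdhc and Sdhd, was taken. The rule found 102 genes among the 32051 genes of the table. Of these, 77 encode subunits of the common enzyme complexes: 37 of complex I, 4 of complex II, 8 of complex III, 11 of complex IV and 17 of complex V. The other genes encode 8 assembly factors of complex I, 8 tissue or stress isoforms of complex IV subunits, 7 gene copies or pseudogenes, 1 factor of respiratory supercomplexes (Cox7a2l) and 1 inhibitor of the ATP synthase (Atp5if1). A mean of at least 0.1 FPKM over all libraries was required for testing, which 94 of the 102 members and 13733 genes in all met. All 77 subunits were among the 94, as were all 8 assembly factors, 3 of the 8 isoforms and 4 of the 7 gene copies.

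The study sequenced RNA from Th9 cells, IL-9-secreting helper T cells, which were differentiated in culture from naive splenic CD4+ T cells of C57BL/6J mice. Cells were stimulated through CD3 and CD28 and polarised with IL-4 at 10 ng/mL and TGF-β at 1 ng/mL. The study's methods for Th9 cells also list neutralising antibodies against IL-12 and IFN-γ. All groups shared this culture and differed in what was added until RNA was taken on day 4. The control group received DMSO, the solvent. The second group received EpA (endomelipeptide A, a cyclic peptide from a fungus) at 10 µM, and the third received fatostatin, an inhibitor of SREBP, the transcription factors of lipid synthesis, at 5 µM. The last group received EpA and fatostatin at these doses. Each group had 3 libraries. The labels do not say whether these came from separate mice or cultures, so p-values measure only the spread between these libraries, which may be technical. Per the study's methods the mice were 6 to 8 weeks old. Cells differentiated in culture stand for Th9 cells of the body only in part.

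The respiratory chain passes electrons from food molecules to oxygen and uses the energy to move protons across the inner mitochondrial membrane. Complex I takes electrons from NADH and complex II takes them from succinate, so that complex II is also an enzyme of the citric acid cycle. Complex III passes electrons to cytochrome c, complex IV passes them on to oxygen, and complex V, the ATP synthase, lets protons flow back and makes ATP. The core subunits mostly hold the catalytic centres or the rotor, and the supernumerary subunits mostly surround and stabilise them. In the counts below, Sdhd, a membrane anchor of complex II, is among the core subunits. The ATP synthase subunits Atp5pb, Atp5pd and Atp5po, which hold its catalytic head in place, are counted as supernumerary. A few core subunits of complexes I, III, IV and V are encoded by mitochondrial DNA. Activated T cells are known to build mitochondria as they grow and divide.

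The 12 libraries held 36019739 to 43656682 reads on genes. No pair of libraries was identical. The T cell genes Cd3e and Cd4 were present in every library, at no less than 40.0 and 78.1 FPKM. The summed level of 3 B cell markers was at most 1.19 FPKM, that of 4 myeloid markers at most 0.439 FPKM and that of 2 NK cell markers at most 0.0853 FPKM, while 2 CD8 T cell markers summed to 6.98 to 10.2 FPKM. Of these, Cd8a fell with EpA from 1.81 to 0.802 FPKM (adjusted p = 2.85e-05, limma) and with EpA added to fatostatin from 1.52 to 0.491 FPKM (adjusted p = 2.57e-06), while Cd8b1 had group means of 7.25 to 7.64 FPKM and was not called. Cd3d, Cd3e and Cd3g were also lower with EpA in both settings and Cd4 was higher, for example Cd3e at 53.3 FPKM in DMSO and 42.3 with EpA. Il9 was at 51.0 to 855 FPKM and higher with EpA in both settings, as was Batf. Against DMSO alone, EpA also went with lower Irf4, Cd79a and Xcr1, a dendritic cell marker (adjusted p = 0.00185, 0.0127 and 0.0338), and with higher Lyz2 (adjusted p = 0.00934). With fatostatin Il9 was also higher, at 66.5 against 54.6 FPKM in DMSO (adjusted p = 0.00652) and at 820.6 with both against 640 with EpA (adjusted p = 0.00132), and so was Cd4 (adjusted p = 0.00160 and 0.0357). Cd3g (132.2 against 122.7 FPKM, adjusted p = 0.00525) and the myeloid marker Lyz2 (0.2005 against 0.0371 FPKM, adjusted p = 0.0113) were higher with fatostatin than in DMSO. With both compounds Cd8a was lower than with EpA (adjusted p = 0.00281), while Irf4 (164.1 against 143.4 FPKM, adjusted p = 1.38e-04) and the B cell marker Cd79a (0.869 against 0.489 FPKM, adjusted p = 0.00828) were higher and Batf (88.8 against 95.3 FPKM, adjusted p = 0.0244) was lower. The part of these markers in the results was not tested. The 13 protein-coding genes of mitochondrial DNA were listed at 0 FPKM in every library, so the nuclear genes are described without their mitochondrial partners.

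The subunit genes were strongly and unevenly transcribed in DMSO cells. FPKM divides reads by exon length and by the depth of the library, which allows a comparison between genes. The median subunit was at 55.95 FPKM, against 5.004 FPKM for the median of all genes tested, and 75 of the 77 subunits were above 10 FPKM, against 34.25% of all genes tested. Subunit genes had short exons, with a median summed exon length of 1718 bases against 3841 bases for the genes tested. Together the 77 subunits took 2.103% ± 0.0257 of the summed FPKM in DMSO, 2.131% ± 0.0254 with EpA, 2.085% ± 0.0179 with fatostatin and 2.131% ± 0.0443 with both (SD, n = 3 each). The library ranges overlapped between DMSO (2.082% to 2.132%) and EpA (2.111% to 2.16%).

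**Figure D1:**
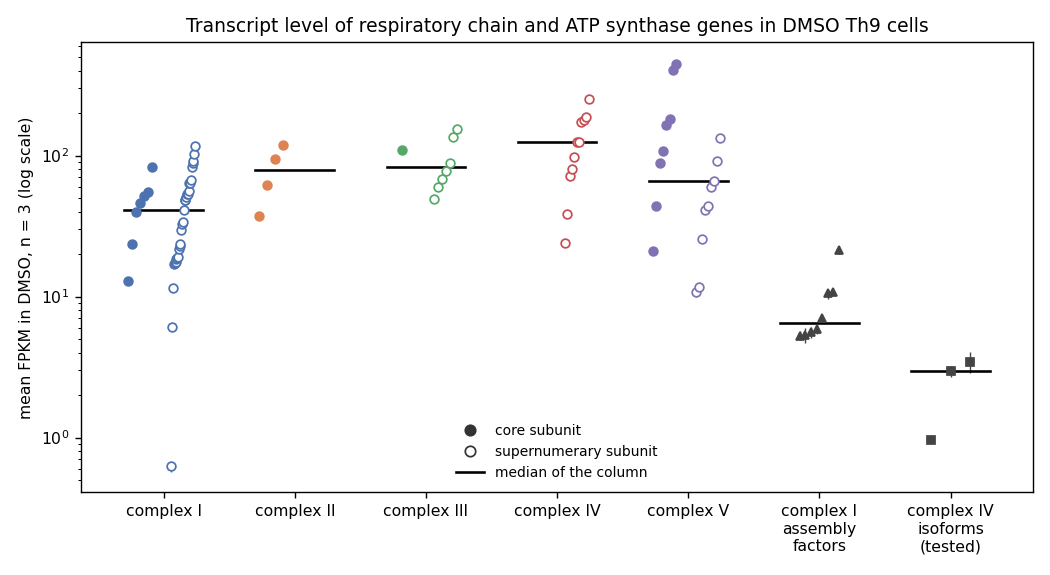
Mean FPKM in the 3 DMSO libraries (log axis) of each subunit by complex, of the complex I assembly factors and of the 3 complex IV isoforms that passed the filter; bars are SD and black lines are medians. The median rises from 41.2 FPKM in complex I to 124.1 FPKM in complex IV, and the assembly factors lie lower, around 6.45 FPKM.

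By complex, the median level in DMSO was 41.2 FPKM for complex I, 78.6 for complex II, 83.2 for complex III, 124.1 for complex IV and 65.8 for complex V. The highest subunit gene of all was Atp5f1b, the catalytic beta subunit of the ATP synthase, at 449.6 ± 6.31 FPKM (SD, n = 3). The lowest was Ndufb2, a supernumerary subunit of complex I, at 0.624 ± 0.0516 FPKM. Its annotated exons sum to 5628 bases, and 111 to 178 reads fell on them in a library. The next lowest was Ndufab1, the mitochondrial acyl carrier protein, at 6.13 ± 0.148 FPKM. In the other complexes the lowest and highest subunits were Sdhc (37.5 FPKM) and Sdhd (119.1) in complex II, Uqcrq (49.4) and Uqcr10 (154.7) in complex III, Cox5a (24.2) and Cox6b1 (250.9) in complex IV, and Atp5po (10.7) and Atp5f1b in complex V. The highest of complex I was Ndufc2, at 116.2 FPKM.

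The assembly factors, which put complex I together and leave it afterwards, were at a median of 6.45 FPKM in DMSO. They ranged from 5.28 FPKM for Ndufaf2 to 21.4 FPKM for Ndufaf1.

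The isoforms of complex IV known from other tissues were low or not detected. Cox7b2 and Cox8c had no read in any library, Cox8b had at most 1, Ndufa4l2 at most 3 and Cox6a2, a form of heart and muscle, at most 8. The other 3 passed the filter. Cox6b2, a form known from testis, was at 3.44 FPKM in DMSO, which is 1.35% ± 0.229 of the summed FPKM of Cox6b1 and Cox6b2 (SD, n = 3). Cox7a1, a form of heart and muscle, was at 2.95 FPKM or 2.31% ± 0.277 of the sum with Cox7a2. Cox4i2, a form known from lung and low oxygen, was at 0.965 FPKM or 0.534% ± 0.0265 of the sum with Cox4i1. The common forms therefore made up nearly all of the transcripts of each pair.

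**Figure D2:**
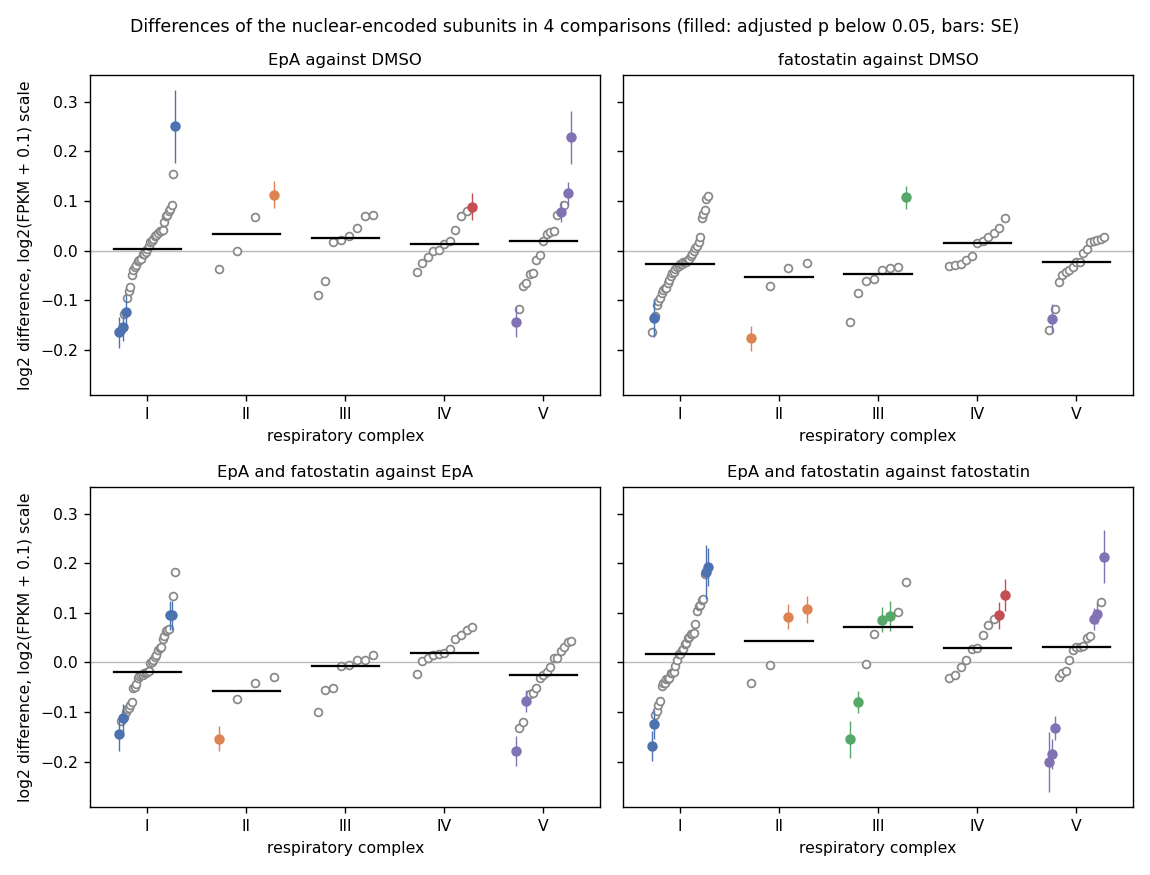
Log2 difference of every subunit (log2(FPKM + 0.1) scale) by complex in the 4 comparisons between groups; filled points with SE bars have an adjusted p below 0.05, open points do not, and black lines are medians. Nearly all points lie between -0.2 and 0.25, with members of a complex on both sides of 0.

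The comparison of EpA with DMSO asks what the peptide alone did. Small differences in both directions were found within complexes I and V. The ATP synthase genes Atp5f1b, Atp5pb and Atp5mk rose while Atp5mc2, a gene for subunit c of its rotor, fell. Sdhd of complex II and Cox7b of complex IV rose, and Ndufb7, Ndufv3 and Ndufa13 of complex I fell. Cox7b lost its call in 7 of the alternatives, among them without DMSO replicate 2 or 3 or EpA replicate 2 (adjusted p of up to 0.121). No member was both called and at 1.5-fold or more. The test was limma on log2(FPKM + 0.1), fitted over all genes tested with Benjamini-Hochberg adjustment, and "called" means an adjusted p below 0.05. Of the 94 members tested, 9 were called higher (9.57%, against 14.3% of all genes tested) and 5 lower (5.32%, against 13.1%), both below the share of all genes. By the stricter rule of 1.5-fold, 3.38% of all genes and no member were called. Leaving out DMSO replicate 2 reduced the 9 members called higher to 4, and leaving out DMSO replicate 3 reduced them to 5. In bulk RNA, fewer cells with a transcript and less of it per cell cannot be told apart.

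The subunits as a group barely moved with EpA. The median log2 difference was 0.017 over the 77 subunits and 0.0023 over all genes tested, with 43 subunits above 0 and 34 below. Without EpA replicate 2 the median of the subunits was 5.4e-04 and without DMSO replicate 2 it was 0.0011, each time with 39 above 0 and 38 below. Without DMSO replicate 1 it was 0.027, with 51 above 0 and 26 below, and without EpA replicate 3 it was 0.026. By complex the median was 0.0022 for complex I, 0.03 for complex II, 0.03 for complex III, 0.01 for complex IV and 0.02 for complex V. Of the 20 core subunits 2 were called higher (10%) and 1 lower (5%), and of the 57 supernumerary subunits 4 were called higher (7.02%) and 3 lower (5.26%), against 14.3% and 13.1% of all genes.

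The same comparison in the presence of fatostatin, EpA and fatostatin against fatostatin, uses none of the libraries of the first. Here 13 members were called higher (13.8%, against 16.2% of all genes) and 9 lower (9.57%, against 13.3%), and no member was called at 1.5-fold or more, against 3.75% of all genes. Without replicate 1 of the group with both compounds 22 members were called higher, and without its replicate 3, 8 members. Complex II had 2 of its 4 subunits called higher (Sdhb and Sdhd), complex III had Uqcrc2 and Uqcrq higher and Uqcrb and Uqcrh lower, and complex IV had Cox5a and Cox7b higher. The calls of Uqcrc2, Uqcrq and Cox7b were each lost on leaving out some of the libraries compared, replicate 3 of the group with both compounds among them (adjusted p of up to 0.0946, 0.132 and 0.0845 over the alternatives). Complex V had Atp5f1b, Atp5pb and Atp5mk higher and Atp5mc2, Atp5pd and Atp5po lower. The exons of Atp5po overlap those of other genes over 47.9% of their length, so its reads cannot all be assigned with certainty. The median over the 77 subunits was 0.028, with 47 above 0 and 30 below, and over all genes 0.01. Of the core subunits 15% were called higher and 5% lower, and of the supernumerary subunits 14% and 10.5%. Without fatostatin replicate 1 the median of the subunits was 0.0050, with 39 above 0 and 38 below, and without replicate 1 of the group with both compounds it was 0.056, with 59 above 0 and 18 below. It was 0.013 without replicate 2 of that group and also by median-ratio scaling.

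In all, 10 members were called in both of these comparisons, each in the same direction. They are 71.43% of the 14 called without fatostatin and 45.45% of the 22 called with it. Ndufaf4, Sdhd, Cox7b, Atp5f1b, Atp5mk and Atp5pb were higher in both, and Ndufb7, Ndufv3, Cox7a2l and Atp5mc2 were lower in both. Among all genes tested, 73.66% of those called without fatostatin were also called in the same direction with it, and they were 68.35% of the genes called with it. Across the 77 subunits the log2 differences of the comparisons had a Pearson r of 0.675, across the 94 members 0.352 and across all 13733 genes 0.481. These are correlations across genes, which share the libraries of each comparison and are not independent replicates.

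**Figure D3:**
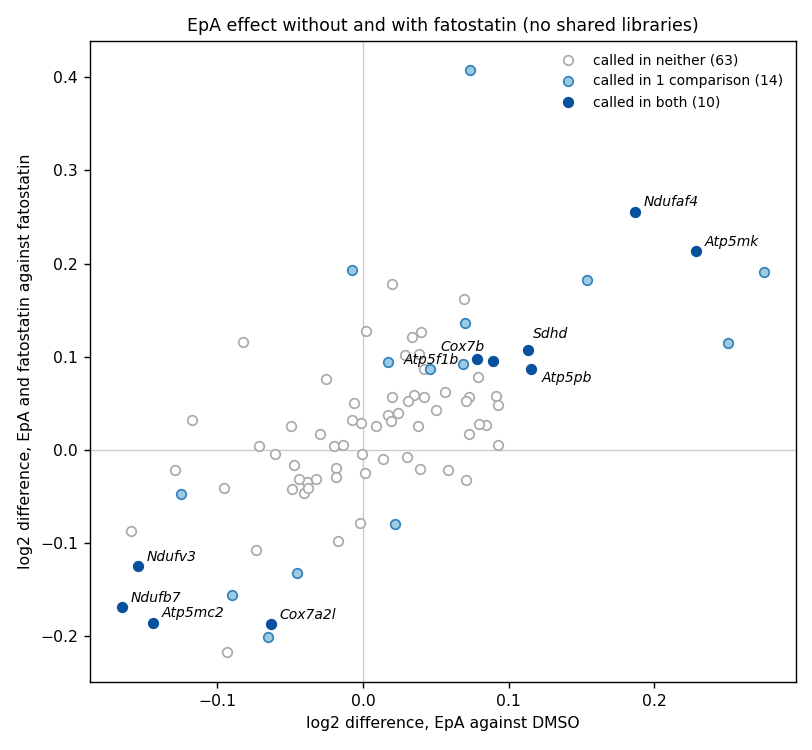
Log2 difference of EpA against DMSO (horizontal) and of EpA and fatostatin against fatostatin (vertical) for the 87 subunits, assembly factors, supercomplex factor and inhibitor that were tested, on the log2(FPKM + 0.1) scale. The 10 genes called in both comparisons are named: 6 lie at upper right and 4 at lower left.

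Complex V held members that were called in opposite directions with EpA. Atp5f1b (ENSMUSG00000025393, chromosome 10) was at 454.2, 442.4 and 452.1 FPKM in the DMSO libraries and at 471.2, 474.8 and 477.7 with EpA. It was at 447.5, 468.5 and 453.6 FPKM with fatostatin and at 477.1, 496.2 and 492.5 with both. Every library with EpA was above every library without it. The log2 difference was 0.08 (SE 0.0212, adjusted p = 0.0177, limma) against DMSO and 0.10 (SE 0.0212, adjusted p = 0.00475) against fatostatin. The call against DMSO was lost without DMSO replicate 2 (adjusted p = 0.0689), without EpA replicate 3 (0.0583) and with no intensity trend (0.0585). Atp5pb, subunit b of the peripheral stalk that holds the catalytic head in place, rose by 0.12 without fatostatin (100.1 ± 3.19 against 92.3 ± 1.26 FPKM) and by 0.09 with it (94.8 ± 0.523 against 89.2 ± 1.26). Atp5mk, also known as DAPIT, a small membrane subunit that helps ATP synthases pair, was at 27.1, 25.1 and 24.5 FPKM in DMSO and at 29.9, 31.0 and 28.9 with EpA. Its log2 difference was 0.23 (SE 0.0529, adjusted p = 0.00763) without and 0.21 (adjusted p = 0.0104) with fatostatin. The other peripheral stalk subunits Atp5pd and Atp5po were at 132.3 and 10.7 FPKM in DMSO and 128.3 and 10.2 with EpA, differences that were not called. In the presence of fatostatin they fell by 0.13 and 0.20 on the log2 scale (adjusted p = 0.00182 and 0.0286). The call of Atp5po was lost without replicate 1 or 3 of either group (adjusted p of up to 0.108).

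Atp5mc2 was called in all 4 comparisons between groups, and it was lower each time a compound was added. It is located on chromosome 15, 102662864 to 102672352 on the minus strand of GRCm38 (ENSMUSG00000062683), and is one of the 3 genes whose differing precursors give the same mature subunit c. It was at 89.3, 88.8 and 88.2 FPKM in DMSO, 77.4, 83.0 and 80.7 with EpA, 78.0, 80.8 and 83.5 with fatostatin, and 70.0, 70.2 and 72.8 with both. All DMSO libraries were above all others, and all libraries with both compounds were below all others. The log2 difference was -0.14 (SE 0.0299, adjusted p = 0.00411) for EpA and -0.14 (adjusted p = 0.0102) for fatostatin against DMSO. With both compounds it was -0.18 (adjusted p = 0.00196) against EpA and -0.19 (adjusted p = 7.37e-04) against fatostatin. The change of the EpA effect on adding fatostatin was not called for Atp5mc2.

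The other genes for subunit c did not pass the test in any comparison. Atp5mc3 was at 180.6 FPKM in DMSO, 174.7 with EpA, 177.8 with fatostatin and 175.8 with both, and Atp5mc1 was at 21.1, 21.7, 20.5 and 20.9 FPKM in the same order. The 3 genes summed to 290.4 ± 6.20 FPKM in DMSO and 267.7 ± 9.74 with both compounds (SD, n = 3). Atp5mc2 gave 30.6% ± 0.597 of that sum in DMSO, 29.0% ± 0.700 with EpA, 28.9% ± 0.463 with fatostatin and 26.5% ± 0.439 with both. The share of Atp5mc3 was 62.2% ± 0.482, 63.1% ± 0.926, 63.7% ± 0.520 and 65.7% ± 0.497 in this order. The share of Atp5mc2 was lower in every library with a compound than in every DMSO library.

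**Figure D4:**
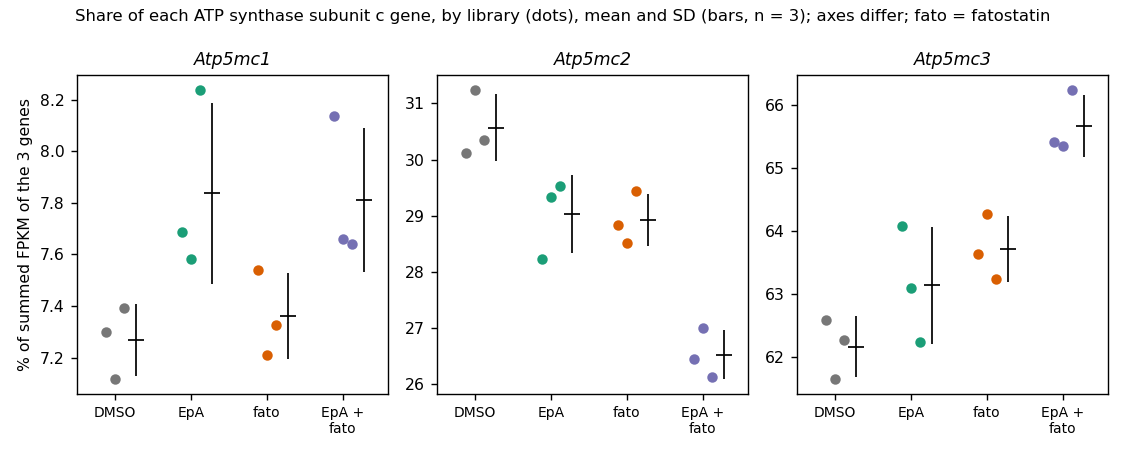
Share of Atp5mc1, Atp5mc2 and Atp5mc3 in their summed FPKM (%) for each library (dots), with mean and SD (bars, n = 3); each panel has its own axis, which does not start at 0. Atp5mc2 goes from 30.6% in DMSO to 26.5% with both compounds, while Atp5mc3 goes from 62.2% to 65.7%.

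In complex II, succinate dehydrogenase, the membrane anchor Sdhd and the iron-sulfur subunit Sdhb were called. Sdha, the flavoprotein that oxidises succinate, stayed between 92.8 and 96.7 FPKM in all 12 libraries and was not called in any comparison. Sdhc, a membrane anchor, was between 33.4 and 39.1 FPKM and was not called either. Sdhd, the other membrane anchor (ENSMUSG00000000171, chromosome 9), was at 121.1, 115.2 and 121.0 FPKM in DMSO and 127.4, 130.0 and 128.9 with EpA. It was at 115.7, 113.8 and 119.1 FPKM with fatostatin and 121.6, 129.1 and 124.7 with both. In either setting all libraries with EpA were above those without, by a log2 difference of 0.11 (SE 0.0272, adjusted p = 0.00953) and 0.11 (adjusted p = 0.0118). Sdhb is described with fatostatin, the compound with which it fell.

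The comparison of fatostatin with DMSO asks what the SREBP inhibitor alone did, and that of both compounds with EpA asks the same in the presence of EpA. Very few members changed. Sdhb of complex II and Atp5mc2 of complex V were lower in both comparisons, and Cox6b2 was higher in both, as the only member both called and at 1.5-fold or more. Against DMSO, 3 members were called higher (3.19%, against 7.69% of all genes) and 3 lower (3.19%, against 6.31%), and 1 member was called at 1.5-fold or more, against 1.86% of all genes. Against EpA, 3 members were called higher (3.19%, against 9.22%) and 6 lower (6.38%, against 6.79%), and 1 member was called at 1.5-fold or more, against 1.99% of all genes. These shares over all members were below those of all genes. Of the 20 core subunits 2 (10%) were called lower against DMSO and 4 (20%) against EpA, against 6.31% and 6.79% of all genes, and of the 57 supernumerary subunits 1 (1.75%) was called lower in each. The gene copies Ndufs6b (1.83-fold, adjusted p = 0.125, 10 to 54 reads a library) and Ndufb4c (0.666-fold, adjusted p = 0.316, 18 to 52 reads) were also past 1.5-fold with fatostatin against DMSO but were not called, and Ndufs6b was at 1.60-fold with EpA (adjusted p = 0.177). Leaving out replicate 1 of the group with both compounds, which enters the fit of fatostatin against DMSO only through the shared estimate of spread, raised the members called lower there to 5. The 3 called higher against EpA fell to 1, Cox6b2, on leaving out any DMSO library, EpA replicate 2 or 3, fatostatin replicate 1, or replicate 2 or 3 of the group with both compounds.

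The median subunit was lower with fatostatin by a small amount. It was -0.028 on the log2 scale over the 77 subunits against 0.0053 over all genes tested, with 22 subunits above 0 and 55 below. All 4 complex II subunits and 7 of the 8 complex III subunits were below 0, while 6 of the 11 complex IV subunits were above 0. Without fatostatin replicate 1 the median was -0.015, with 33 above 0 and 44 below, and without fatostatin replicate 3 it was -0.042, with 17 above 0 and 60 below. In the presence of EpA the median was -0.0098 against 0.015 over all genes tested, with 35 above 0 and 42 below. Leaving out 1 library at a time it ranged from -0.032, with 23 above 0, without replicate 3 of the group with both compounds to 0.013, with 48 above 0, without replicate 1 of that group. By median-ratio scaling it was -0.028, with 22 above 0 and 55 below. In the main fit of this comparison complex IV had 10 of 11 subunits above 0, none of them called. This count by complex was not taken for median-ratio scaling.

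Sdhb, which carries the iron-sulfur clusters of complex II, is located on chromosome 4, 140961203 to 140979193 on the plus strand (ENSMUSG00000009863). It was at 62.6, 62.7 and 60.0 FPKM in DMSO, 53.4, 55.2 and 55.2 with fatostatin, 63.8, 64.2 and 66.3 with EpA, and 57.3, 58.0 and 59.3 with both. All libraries with fatostatin were below all libraries without it. The log2 difference was -0.18 (SE 0.0247, adjusted p = 5.75e-04) against DMSO and -0.15 (adjusted p = 0.00150) against EpA. With EpA added to fatostatin it was higher by 0.09 (adjusted p = 0.0154), a call lost without replicate 3 of the group with both compounds or fatostatin replicate 1 (adjusted p of up to 0.0615).

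Cox6b2 (ENSMUSG00000051811, chromosome 7, 4751792 to 4753094, minus strand) was at 3.50, 2.83 and 3.98 FPKM in DMSO and 4.02, 3.40 and 2.96 with EpA. It was at 6.75, 5.96 and 5.95 FPKM with fatostatin and 6.605, 5.56 and 7.38 with both, so that the libraries with and without fatostatin did not overlap. The level was 1.80-fold that of DMSO (log2 difference 0.85, SE 0.1405, adjusted p = 0.00187) and 1.86-fold that of EpA (0.90, adjusted p = 0.00128). These values rest on 128 to 335 reads a library. The share of Cox6b2 in the sum with Cox6b1 went from 1.35% ± 0.229 to 2.32% ± 0.254 with fatostatin, and from 1.29% ± 0.209 with EpA to 2.38% ± 0.371 with both (SD, n = 3). Cox6b1 itself was at 250.9 ± 3.90 FPKM in DMSO and 262.9 ± 10.5 with fatostatin.

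**Figure D5:**
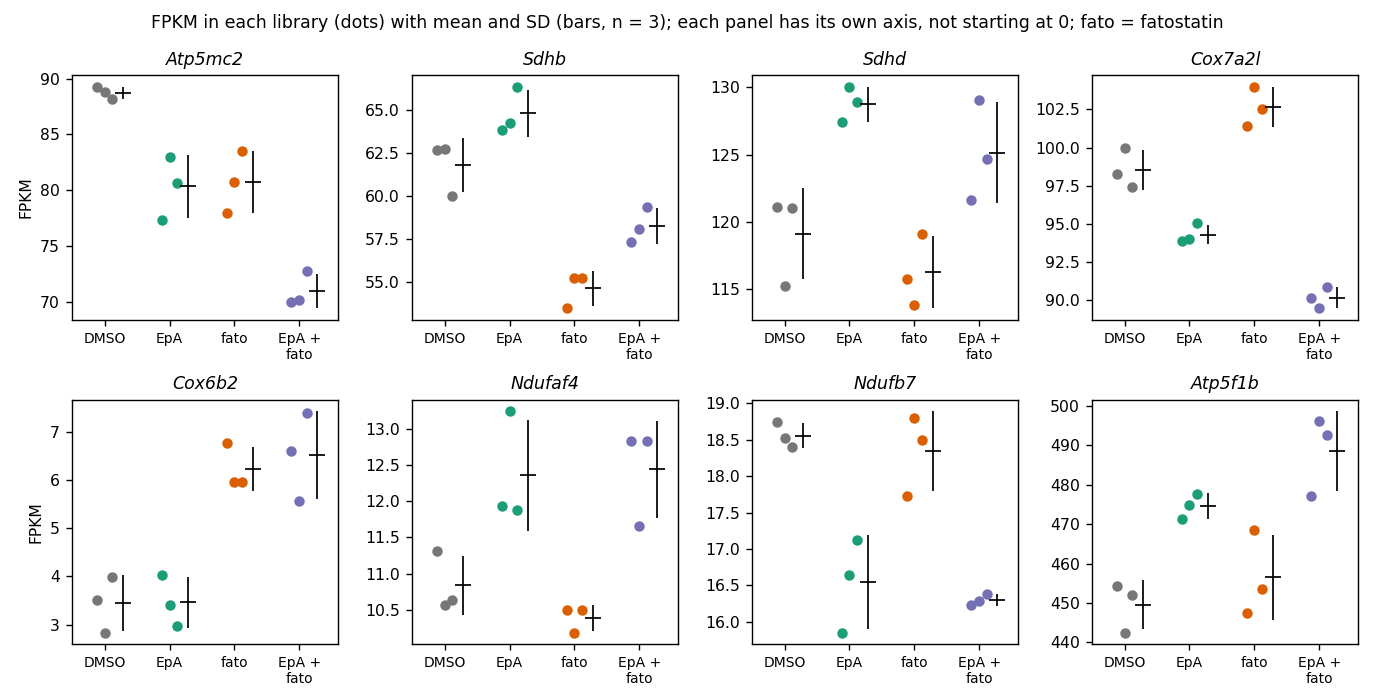
FPKM of 8 members in each of the 12 libraries (dots, 3 a group) with mean and SD (bars); every panel has its own axis, which does not start at 0. The groups with fatostatin lie apart from those without it for Sdhb and Cox6b2, and the groups with EpA lie apart from those without it for Atp5f1b, Cox7a2l, Ndufaf4 and Ndufb7.

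Of the other isoforms, none was called with fatostatin. Cox4i2 was at 0.971, 0.932 and 0.992 FPKM in DMSO and at 1.26, 1.37 and 1.35 with fatostatin, a difference that was not called (adjusted p = 0.0801) although its 3 fatostatin libraries were above all others. It was at 0.776, 1.01 and 0.991 FPKM with both compounds, which was lower than with fatostatin by a log2 difference of -0.48 (SE 0.144, adjusted p = 0.0261). This call was lost with voom on the recovered reads (adjusted p = 0.145) and without replicate 1 of the group with both compounds or fatostatin replicate 2 or 3 (up to 0.0944). These levels rest on 20 to 44 reads a library. Cox7a1 was at 2.95 ± 0.260 FPKM in DMSO and 2.05 ± 0.242 with fatostatin, with an adjusted p of 0.103.

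Cox7a2l, the supercomplex factor that links complexes III and IV, was called in all 4 comparisons, with opposite directions of the fatostatin effect. C57BL/6J mice are known to carry a shortened form of its protein. It is located on chromosome 17, 83501918 to 83517330 on the minus strand (ENSMUSG00000024248). It was at 98.2, 99.96 and 97.4 FPKM in DMSO, 93.8, 94.0 and 95.03 with EpA, 101.4, 104.0 and 102.5 with fatostatin, and 90.1, 89.5 and 90.9 with both. No 2 groups overlapped, and the order was both compounds, EpA, DMSO and fatostatin from low to high. Fatostatin against DMSO gave a log2 difference of 0.06 (SE 0.0163, adjusted p = 0.0322), but in the presence of EpA it was -0.06 (adjusted p = 0.0191). EpA gave -0.06 (adjusted p = 0.0136) against DMSO and -0.19 (adjusted p = 7.43e-06) against fatostatin. The call of fatostatin against DMSO was lost without DMSO replicate 1 or 3 or fatostatin replicate 2 or 3 (adjusted p of up to 0.118), that in the presence of EpA without EpA replicate 3 or replicate 2 of the group with both compounds (up to 0.0722), and that of EpA against DMSO without DMSO replicate 2 (0.0557). The EpA effect with fatostatin minus that without it was -0.12 (SE 0.0230), with an unadjusted p of 2.13e-04 and an adjusted p of 0.154, so it did not pass the test over all genes.

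This change of the EpA effect on adding fatostatin was called for no member by limma, and for 0.0437% of all genes (6 genes). At an unadjusted p below 0.05 it held 7 of the 94 members, against 1083 of the 13733 genes. Besides Cox7a2l these were Ndufb4, Uqcrh, Ndufa12-ps, Atp5pd, Cox7a1 and Ndufa7. Uqcrh, the hinge protein of complex III that binds cytochrome c1, was at 136.1 ± 1.55 FPKM in DMSO, 138.2 ± 4.18 with EpA, 146.6 ± 0.969 with fatostatin and 138.8 ± 2.98 with both. Its 3 fatostatin libraries, at 146.8, 147.5 and 145.6 FPKM, were above all others. It rose by 0.11 with fatostatin alone (adjusted p = 0.00912) and fell by 0.08 when EpA was added to fatostatin (adjusted p = 0.0220). The call of the fall was lost without fatostatin replicate 1 or 2 or replicate 1 or 3 of the group with both compounds (adjusted p of up to 0.0765). Ndufb4, a membrane arm subunit of complex I, was at 16.9 FPKM in DMSO, 16.8 with EpA, 15.4 with fatostatin and 17.6 with both. It fell by 0.14 with fatostatin (adjusted p = 0.0356) and rose by 0.19 when EpA was added (adjusted p = 0.00284). The call with fatostatin alone was lost without DMSO replicate 1 or 3 or fatostatin replicate 2 or 3 (adjusted p of up to 0.123). Its values are uncertain because the copy Ndufb4c has a sequence 100% identical to it.

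Complex I had the most subunits and few changes. Ndufb7, a supernumerary subunit of its membrane arm (ENSMUSG00000033938, chromosome 8), was at 18.7, 18.5 and 18.4 FPKM in DMSO and 15.9, 16.6 and 17.1 with EpA. It was at 17.7, 18.8 and 18.5 FPKM with fatostatin and 16.2, 16.3 and 16.4 with both, so all libraries with EpA were below all without. The log2 difference was -0.17 (adjusted p = 0.00213) and -0.17 (adjusted p = 0.00172). Ndufv3, a supernumerary subunit next to the NADH-binding site, went from 34.1 ± 0.578 to 30.6 ± 1.04 FPKM with EpA and from 35.7 ± 0.707 with fatostatin to 32.7 ± 0.827 with both, by -0.15 and -0.12 on the log2 scale. Ndufa13, also known as GRIM-19, was lower with EpA (-0.12, adjusted p = 0.0198), and 30.0% of its exon bases are shared with another gene. Without DMSO replicate 1 or EpA replicate 1 or 2 its call was lost (adjusted p of up to 0.0626). Ndufa5 was higher with EpA (0.25, adjusted p = 0.0254), at 27.4 ± 0.965 against 23.0 ± 1.89 FPKM, but not without DMSO replicate 2 or 3 or EpA replicate 2 or 3 (adjusted p of up to 0.0989).

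Among the core subunits of complex I, Ndufv2, an iron-sulfur subunit, was lower with both compounds than with EpA (-0.11, adjusted p = 0.0205). This call was lost without EpA replicate 1 or 2 or replicate 1 of the group with both compounds (adjusted p of up to 0.0631). Ndufs1, an iron-sulfur subunit of the same arm, was between 12.3 and 13.7 FPKM in the 12 libraries, and Ndufv1, which binds NADH, between 46.8 and 52.8. Neither was called. Uqcrfs1, the Rieske iron-sulfur protein of complex III, was at 109.6, 115.3, 106.7 and 111.1 FPKM in DMSO, EpA, fatostatin and both, and Cox4i1, the most abundant form of subunit 4 of complex IV, at 179.9, 174.5, 181.6 and 177.8. Neither was called in any comparison.

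Of the 8 complex I assembly factors 2 (25%) were called higher with EpA and 2 when EpA was added to fatostatin, with Ndufaf4 in common, against 14.3% and 16.2% of all genes. Ndufaf4 (ENSMUSG00000028261, chromosome 4) was at 11.3, 10.6 and 10.6 FPKM in DMSO and 11.9, 13.2 and 11.9 with EpA. It was at 10.5, 10.2 and 10.5 FPKM with fatostatin and 12.8, 11.7 and 12.8 with both, above every library without EpA. The log2 difference was 0.19 (SE 0.0503, adjusted p = 0.0172) and 0.26 (adjusted p = 0.00268). The call without fatostatin was lost without DMSO replicate 2 or 3 or EpA replicate 2 (adjusted p of up to 0.0638). Ndufaf2 rose with EpA alone (0.27, adjusted p = 0.0116), and 65.6% of its exon bases are shared with B230220B15Rik. Ndufaf6 was higher with both compounds than with fatostatin (0.41, adjusted p = 0.0370), with overlapping libraries, and lost its call without fatostatin replicate 2 or 3 or replicate 1 or 2 of the group with both compounds (up to 0.136).

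The promoters of genes of the chain are known to be bound by NRF1 and by GABP, a factor of the ETS family. RefSeq promoters (GRCm38.p6, 250 bases before to 50 after the start) were found for 79 members and 27025 genes and searched on both strands. The NRF1 core CGCNTGCG was in 37.97% of the members and 9.221% of all genes, the ETS letters CCGGAAG in 24.05% and 9.928%, and the YY1 letters AAGATGG in 15.19% and 7.278%. The sterol element TCACNCCAC, to which SREBP binds, was in 0% of the members and 1.436% of all genes. The E-box CACGTG was in 8.861% and 8.093%, and the CREB element TGACGTCA in 5.063% and 2.031%. The 27025 genes include genes too low to be tested in these cells, and the shares over the genes tested alone were not taken. Matches of different motifs may overlap in position. A match describes letters in a window and is not a binding site.

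The stretches below belong to members called with EpA (Ndufaf4, Sdhd, Atp5mc2) or with fatostatin (Cox6b2), and show the promoter bases that lie outside annotated exons, up to 120 bases before the start. They are written 5′ to 3′ on the strand of the gene, with the NRF1 core or the ETS letters in capitals. Ndufaf4 is on the plus strand at chr4:24897963-24898082, with its NRF1 core starting 112 bases before the gene. Sdhd is on the minus strand at chr9:50603850-50603909, with the ETS letters starting 46 bases before the gene. A second match of Sdhd, to the NRF1 core, starts 78 bases before the gene, within an exon of the neighbouring gene Timm8b. Cox6b2 is on the minus strand at chr7:4753095-4753214 and holds none of the motifs. For Atp5mc2, whose NRF1 core lies in a first exon of some transcripts, only the match and 8 bases on either side are shown (chr15:102671073-102671096, minus strand, 41 bases before the RefSeq start).
Ndufaf4: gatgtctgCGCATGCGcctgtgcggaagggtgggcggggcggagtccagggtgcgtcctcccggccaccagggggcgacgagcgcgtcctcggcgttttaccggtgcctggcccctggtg
Sdhd: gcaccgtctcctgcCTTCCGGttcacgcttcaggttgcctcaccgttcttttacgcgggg
Atp5mc2: tccggccgCGCATGCGcagagcct
Cox6b2: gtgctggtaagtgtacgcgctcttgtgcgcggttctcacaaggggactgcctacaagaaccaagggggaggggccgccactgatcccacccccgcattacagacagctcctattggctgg

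Other genes of the pathway, outside the naming rule, were read from 3 lists. The list of electron carriers, channels and assembly factors had 60 genes tested, including the members Atp5mk, under an older name, and Atp5if1. With EpA, 10 were called higher (16.7%, against 14.3% of all genes) and 2 lower (3.33%, against 13.1%). With EpA added to fatostatin 13 were higher (21.7%, against 16.2%) and 1 lower (1.67%, against 13.3%). Those among the 4 smallest adjusted p in either comparison were the outer membrane channel Vdac1 (log2 difference 0.21 without and 0.21 with fatostatin), the ADP/ATP carrier Slc25a4 (0.14 and 0.12), cytochrome c (Cycs, 0.19 and 0.20), the ATP synthase assembly factor Tmem70 (0.23 and 0.16) and Higd1a (0.24 and 0.33). The median of the list was 0.03 and 0.04, against 0.0023 and 0.01 for all genes. With fatostatin 2 were called higher (3.33%, against 7.69%) and 3 lower (5%, against 6.31%), and with both against EpA none higher (against 9.22%) and 2 lower (3.33%, against 6.79%). Sco1, a copper chaperone of complex IV, fell in both, by 0.30 and 0.21 on the log2 scale (adjusted p = 1.53e-05 and 2.77e-04).

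Of 13 genes of coenzyme Q synthesis, 2 rose with EpA (15.4%; Pdss1 by 0.14 and Coq4 by 0.31) and 3 rose when EpA was added to fatostatin (23.1%; Pdss1, Coq5 and Coq10b), against 14.3% and 16.2% of all genes. Coq8a was the only gene of this list called with fatostatin, in both comparisons (7.69% each, against 7.69% and 9.22% of all genes called higher). It was higher by 0.63 (adjusted p = 0.00486) against DMSO, and by 0.57 (adjusted p = 0.00777) when fatostatin was added to EpA, from a mean of 0.928 FPKM over all libraries. Of 20 tested regulators of mitochondrial biogenesis and of mitochondrial DNA expression, 3 were called higher (15%, against 14.3% of all genes) and 2 lower (10%, against 13.1%) with EpA. When EpA was added to fatostatin 5 were higher (25%, against 16.2%) and 2 lower (10%, against 13.3%). Lrpprc, which stabilises mitochondrial mRNA, rose by 0.16 and 0.14, Yy1 rose by 0.06 and 0.08, and Gabpb2, which encodes a subunit of GABP, fell by 0.27 and 0.24. With fatostatin against DMSO 1 was called lower (Polg, by 0.14; 5%, against 6.31%) and none higher (against 7.69%), and with both against EpA 2 were higher (Esrra and Yy1; 10%, against 9.22%).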

How the data were processed

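RNA from 12 libraries, 3 for each of 4 groups, was analysed. The authors trimmed reads with Trim Galore, aligned them with HISAT2 to GRCm38, counted them with featureCounts and deposited 1 table of FPKM per gene. The annotation release and the use of strand are not given in the sources used here. The table also names genes by Ensembl ID and symbol, and 301 lines that repeat a gene were dropped. Exon lengths and positions come from GENCODE vM21.

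Groups were taken from the sample titles. Main values are limma 3.58.1 (R 4.3.3) on log2(FPKM + 0.1) with an intensity trend, for genes of mean at least 0.1 FPKM, in 1 fit of 4 groups, with Benjamini-Hochberg adjustment over all 13733 genes. The authors used DESeq2 for their own tests. FPKM steps gave whole reads for 98.3% to 98.4% of values (within 0.02 reads), so depth is the recovered reads on genes. voom on these reads was an alternative and called 4060 genes for EpA against DMSO. The script was tested on simulated data. With 3 against 3 libraries an exact permutation test cannot go below p = 0.1, so none was run. Copies were sought at 95% identity over 80% of the length of the longest transcript of each member. A copy of only the coding part of a longer transcript can be missed in this way. Ndufb4, Ndufa12, Cox5b and Ndufs6 had 0 copies found from their own transcripts, although Ndufb4c, Ndufa12-ps, Cox5b-ps and Ndufs6b matched them. A member with no copy found is therefore not cleared of copies.

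The members, lists and tests were chosen with earlier results of these data known. Named members were, for each comparison, up to 10 in each direction with the smallest adjusted p and a mean of at least 1 FPKM, all called at 1.5-fold or more, the listed isoforms, subunit c genes and complex II subunits, the highest and lowest subunit of each complex, and core or abundant subunits (Ndufs1, Ndufv1, Uqcrfs1, Cox4i1, Atp5f1b). Of the other lists, called genes with the smallest adjusted p are named. Ndufa7, Ndufab1, Ndufaf1, Ndufaf6, Ndufb4c, Ndufs6b, Cox6b1 and Timm8b were named after their values were seen. The values of 1 member that the rule names are not reported here.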

Additional observations from a re-analysis of the deposited data

How the results depend on the processing

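The 51 log2 differences called for a member in the main fit kept their direction in all 21 alternatives, and 27 of them also kept an adjusted p below 0.05 in each. Many alternatives leave the log2 difference itself unchanged, so its direction could not turn in them. These are the other filters, no intensity trend, the replicate block, only the groups compared, and leaving out a library of neither group compared. There only the adjusted p could move. Across alternatives, 929 of 1071 values stayed called and 142 did not. Those that stayed called throughout include Atp5mc2 in all 4 comparisons, Sdhb and Cox6b2 with fatostatin in both settings, and Ndufb7, Ndufv3, Sdhd, Atp5mk and Atp5pb with EpA in both settings. Cox7a2l kept its call with EpA added to fatostatin, but lost it with fatostatin against DMSO in 8 alternatives (adjusted p of up to 0.124), with both against EpA in 4 (up to 0.0930) and with EpA against DMSO in 3 (up to 0.0643). Ndufb4 lost its call with fatostatin against DMSO in 9 (up to 0.123), and with both against EpA Ndufb6 and Ndufv3 lost theirs in 14 each (up to 0.148 and 0.156) and Atp5pb in 13 (up to 0.133).

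The counts of members called depend on a few libraries and on the call rule. Leaving out 1 library at a time, EpA against DMSO had 4 to 12 higher and 4 to 6 lower, fatostatin against DMSO 2 to 4 higher and 2 to 5 lower, both compounds against EpA 1 to 3 higher and 4 to 7 lower, and both against fatostatin 8 to 22 higher and 6 to 10 lower. Requiring 1.5-fold left 0 higher and 0 lower for EpA against DMSO and for both against fatostatin, and 1 higher and 0 lower for each fatostatin comparison. For both compounds against EpA, members called higher went from 3 to 1 with all genes above 0, median-ratio scaling, no intensity trend or only the groups compared, and members called lower went from 6 to 3 with the latter 2 settings. The cause was not tested. Fatostatin against DMSO had 22 subunits above 0 and 55 below by FPKM, 24 and 53 by TPM, and 20 and 57 by median-ratio scaling, while both compounds against EpA had 35 and 42, 38 and 39, and 22 and 55.

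The labels number the libraries 1 to 3 in every group. The deviations of same-numbered libraries correlated at -0.0472 to 0.0744, so no shared replicate effect was seen. This cannot tell whether same-numbered libraries came from the same mouse, culture or batch. With a replicate block EpA against DMSO had 8 members higher and 5 lower, fatostatin against DMSO 3 and 4, both against EpA 2 and 5, and both against fatostatin 16 and 9. For the change of the EpA effect on adding fatostatin, 0 members were called in each of the 20 alternatives run for it, which leave out the fit of only the groups compared. Genes with few reads a library, such as Cox4i2 (20 to 44), are limited by depth.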

Other observations

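Among the gene copies, Ndufa12-ps was called higher with EpA (log2 difference 0.54, SE 0.161, adjusted p = 0.0283). The call was lost in 6 alternatives, among them without DMSO replicate 2 or 3 or EpA replicate 1 or 2 (adjusted p of up to 0.106). It was at 27.3, 25.2 and 25.1 FPKM in DMSO, 43.3, 42.5 and 28.7 with EpA, 25.3, 37.8 and 27.4 with fatostatin, and 26.7, 28.1 and 28.1 with both. Its sequence is 99.5% identical to the transcript of Ndufa12, the gene it was copied from, which was at 49.8, 52.1 and 50.6 FPKM in DMSO and 52.0, 47.9 and 57.3 with EpA, so reads of the pair cannot be assigned with certainty. Cox5b-ps was at 25.6 to 32.4 FPKM over the 12 libraries and is 99.23% identical to Cox5b, at 75.8 to 85.2 FPKM. Ndufb11b and Atp5k-ps4 had no read in any library, and Atp5c1-ps at most 2.

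The gene listed as Ndufb1 (ENSMUSG00000113902) carries the name Ndufb1-ps and the type long non-coding RNA in GENCODE vM21. It was at 27.2 to 37.1 FPKM over the 12 libraries.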
